A study of Arabidopsis thaliana with 12 samples.

Results

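A set of 9 Arabidopsis thaliana genes of the sulfur deficiency response and of sulfate reduction was followed here through light and singlet oxygen stress. They are SDI1, SDI2, LSU1, LSU2, LSU3, APR1, APR2, APR3 and BGLU28, taken by locus as 9 of the 36917 loci counted in each of 12 RNA sequencing libraries. The genes were selected on expression values measured in these same libraries, and no record says which comparison was used. Their values are therefore a description, and none is given a p-value. Counts of these genes past a threshold stand beside the share of all loci past it, and nothing is read from them. Most counts with a library left out lack that share. They are not read as particular to these genes. The number of all loci past the threshold moved as well, though by unlike amounts and in some cases little. Of the 9 genes, 8 had enough counts to enter the fit across 17879 loci, and BGLU28 did not.

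Of the 12 libraries, 6 are from the double mutant flu/ex1 and 6 from flu/ex1/ydl1, which adds ydl1. Plants were 6 d old, had been grown in soil under continuous light, were moved to darkness for 4 h and were collected there (0 min) or after 30 or 60 min of light, which gives 6 groups of 2 libraries. All groups carry the flu and ex1 mutations, so as labelled the groups differ in ydl1 and in light, and no wild type is among them. In darkness the flu mutant builds up protochlorophyllide, which makes singlet oxygen in the plastid once light returns, and EX1 (EXECUTER1) sits in the plastid and passes that signal on to nuclear genes. The series asks whether YDL1 limits that response. Each library holds 7859611 to 11591060 counts, with 2469353 to 4209672 on nuclear loci. The sampled tissue is given only as plants. The summed level of 3 green tissue marker genes was 7060 to 9150 CPM (counts per 1000000 counts of the library, with library sizes scaled by TMM) in flu/ex1 and 7910 to 11200 CPM in flu/ex1/ydl1. That of 5 root marker genes was 43 to 60.5 CPM and 42 to 56.3 CPM, most of it from BGLU23 (mean 50.4 and 45.6 CPM). Over the 6 libraries of each genotype SMB had 3 and 4 counts and IRT1 7 and 7, so both were near the floor. None of these 8 genes was at 0 over a genotype. Because these are bulk samples, fewer cells of a type and less RNA per cell cannot be told apart. Whether replicates are separate pools of plants is not stated, so p-values cover the spread between these samples, which may be technical.

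The light time of each library is that in the code of its deposited file, because labels and files disagree. The time differs between label and file name for 8 of 12 libraries and is the same for 4, of which 2 also have the same replicate number. Those 4 are at 0 or 60 min, so every library used here at 30 min has another time in its label. The 12 codes in the file names are the 12 codes of the sample titles in another order. The 2 libraries labelled flu/ex1/ydl1 30 min held 131 and 15 CPM of APR3 (AT4G21990). With labelled times few comparisons had any call across all loci, 6 loci between genotypes over the 3 times, 2 in darkness and 0 in each of the other 7 comparisons. Counts with labelled times below are to be read against that.

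Plants take up sulfate, activate it to adenosine 5'-phosphosulfate (APS), and reduce APS to sulfite in the plastid with APS reductase, for which glutathione is the electron donor. Sulfite reductase then makes sulfide, which joins O-acetylserine to give cysteine, the precursor of glutathione. When sulfur runs short or O-acetylserine builds up, plants induce a compact set of genes, among them the SDI, LSU and APR genes. SDI1 and SDI2 hold back glucosinolate synthesis, the LSU genes encode small coiled-coil proteins with many partners, and BGLU28 is a beta-glucosidase that breaks down glucosinolates under sulfur shortage. APS reductase is a main control point of the pathway, and its genes are known to respond to light.

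Promoters are shown for SDI1 and SDI2, which differed most between the genotypes, for APR3, which differed in the other direction, and for LSU3, the gene with a full G-box. Each is the 250 bases before the annotated gene start in RefSeq TAIR10.1, looked up by locus, 5' to 3' on the gene's strand. The deposited files hold locus names and no coordinates, and their labels name the build TAIR10. Capitals mark GAGAC (core of a sulfur-responsive element), ACGTG (a core bound by bZIP factors such as HY5, contained in the G-box CACGTG) and TTGAC (the W box core of WRKY factors), on either strand.
SDI1 (AT5G48850), chr5:19807854-19808103, minus strand: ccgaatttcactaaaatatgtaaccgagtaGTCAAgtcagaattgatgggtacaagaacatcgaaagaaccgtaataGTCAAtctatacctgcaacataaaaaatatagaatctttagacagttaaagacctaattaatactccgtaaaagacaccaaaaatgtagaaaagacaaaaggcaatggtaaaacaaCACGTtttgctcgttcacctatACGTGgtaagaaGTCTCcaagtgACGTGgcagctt
SDI2 (AT1G04770), chr1:1337850-1338099, minus strand: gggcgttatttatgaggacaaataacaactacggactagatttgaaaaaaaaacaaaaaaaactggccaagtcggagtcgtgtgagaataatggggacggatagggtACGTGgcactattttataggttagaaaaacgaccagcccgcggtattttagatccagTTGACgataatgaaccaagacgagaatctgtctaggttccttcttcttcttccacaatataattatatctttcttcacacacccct
LSU3 (AT3G49570), chr3:18373148-18373397, minus strand: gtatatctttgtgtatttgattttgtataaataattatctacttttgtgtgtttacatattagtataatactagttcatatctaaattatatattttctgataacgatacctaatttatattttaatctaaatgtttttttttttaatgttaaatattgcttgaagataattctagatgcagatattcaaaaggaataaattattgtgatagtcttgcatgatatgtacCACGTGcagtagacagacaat
APR3 (AT4G21990), chr4:11659168-11659417, minus strand: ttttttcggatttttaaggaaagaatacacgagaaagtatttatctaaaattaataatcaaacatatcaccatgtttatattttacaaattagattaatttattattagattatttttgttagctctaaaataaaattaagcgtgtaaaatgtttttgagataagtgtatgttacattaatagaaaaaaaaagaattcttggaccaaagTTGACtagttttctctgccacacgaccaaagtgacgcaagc

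The SDI1 window held the most matches. GAGAC lay on the reverse strand with its first base 23 bases before the gene start, and ACGTG began at 57, 35 and 12 bases before it. The SDI2 window had 1 ACGTG match, that of LSU3 held CACGTG at 21 bases before the start, which counts as ACGTG on both strands, and that of APR3 held TTGAC at 41 bases. Over the 9 genes, 2 had GAGAC, 4 ACGTG, 1 CACGTG and 4 TTGAC. Among 27443 promoters of protein-coding genes cut the same way, 25.8% held GAGAC, 22.9% ACGTG, 6.49% CACGTG and 44.9% TTGAC. A match describes these letters and does not show a binding site.

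In flu/ex1 the 8 fitted genes were on average lower in darkness than in the light, while in flu/ex1/ydl1 SDI1, SDI2 and LSU2 lay nearer to their dark level. APR3 went the other way and was highest in flu/ex1/ydl1 at 60 min. The pairs of libraries of the genotypes did not overlap for SDI1, APR1 and APR2 in darkness, all 3 lower in flu/ex1/ydl1, where 15.5% of all loci were. At 30 min 6 genes were lower without overlap, the same 3 with SDI2, LSU1 and LSU2, where 24.1% of all loci were. At 60 min 5 were lower without overlap (SDI1, SDI2, LSU2, APR1 and APR2), where 27.3% of all loci were, and 1 was higher (APR3), where 24.0% were.

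**Figure D1:**
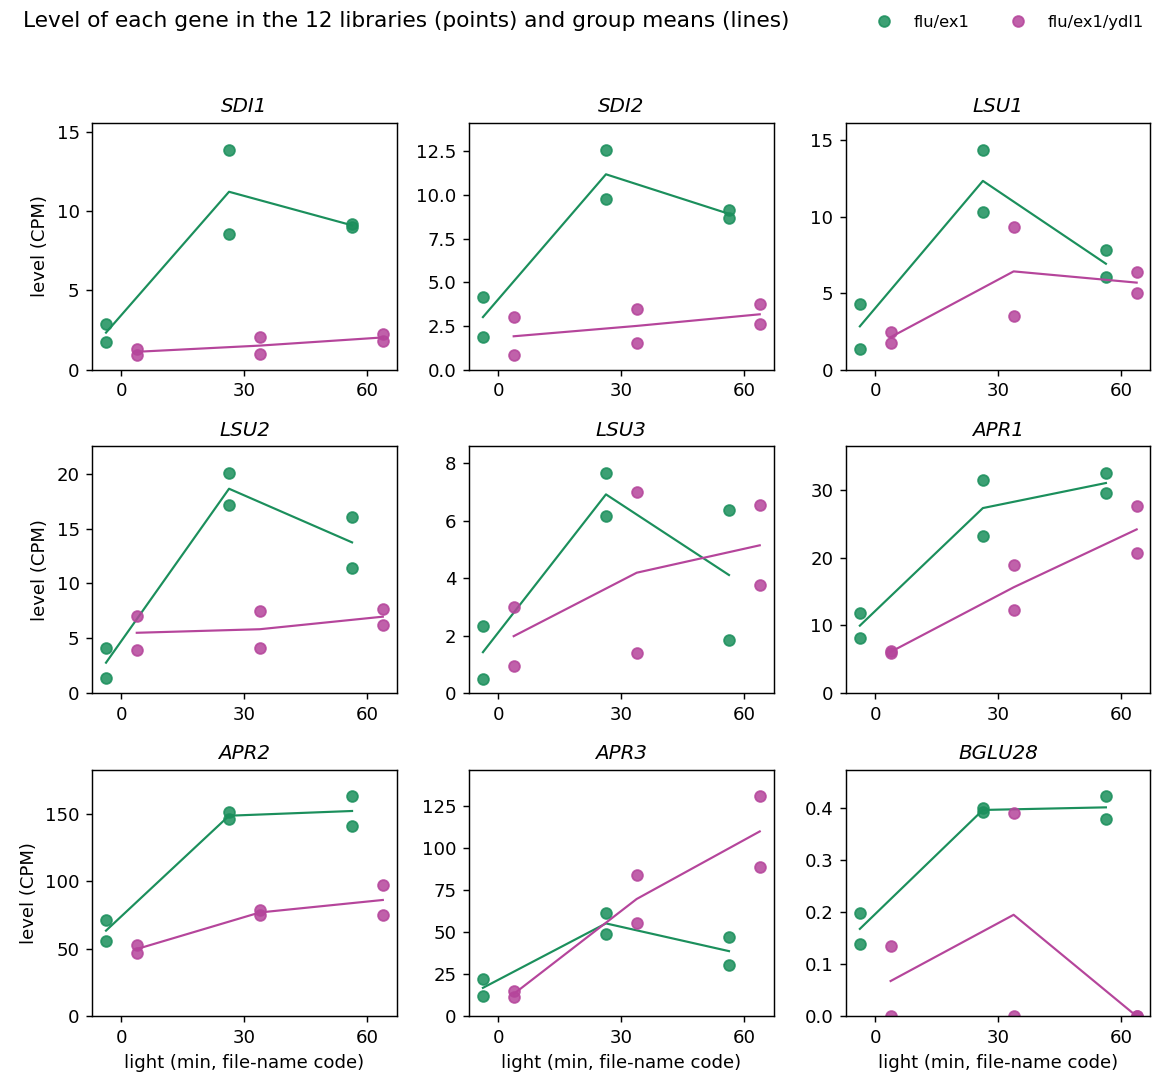
Level in CPM (vertical axes start at 0) of each of the 9 genes against light time in min, with 1 point per library, points of the genotypes set slightly apart at each time, lines through the means of 2 libraries, green for flu/ex1 and magenta for flu/ex1/ydl1. SDI1 lies at 8.57 to 13.9 CPM in the 4 illuminated flu/ex1 libraries and at 1.00 to 2.28 CPM in the 4 illuminated flu/ex1/ydl1 libraries, whereas APR3 reaches 89.0 and 131 CPM in flu/ex1/ydl1 at 60 min.

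SDI1 had 2.91 and 1.77 CPM in flu/ex1 at 0 min, 13.9 and 8.57 at 30 min, and 9.03 and 9.20 at 60 min. The flu/ex1/ydl1 libraries had 0.948 and 1.31 CPM at 0 min, 1.00 and 2.04 at 30 min, and 1.79 and 2.28 at 60 min. All 4 illuminated flu/ex1 libraries were above all 6 flu/ex1/ydl1 libraries. SDI1 was 7.13-fold lower in flu/ex1/ydl1 at 30 min, a log2 fold change of -2.83 ± 0.37 (SE), and 4.33-fold lower at 60 min, with -2.11 ± 0.35. In darkness it had -1.01 ± 0.47. Without replicate 3 of flu/ex1/ydl1 at 30 min the log2 fold change at that time was -3.47 for SDI1 and -2.88 for SDI2.

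SDI2, the paralog of SDI1, had 4.15 and 1.87 CPM in flu/ex1 at 0 min, 12.6 and 9.77 at 30 min, and 8.71 and 9.13 at 60 min. Its values in flu/ex1/ydl1 were 0.813 and 3.01 CPM at 0 min, 1.51 and 3.50 at 30 min, and 3.75 and 2.59 at 60 min. The genotypes overlapped in darkness and were apart at both light times. The log2 fold change between genotypes was -2.12 ± 0.44 at 30 min and -1.55 ± 0.43 at 60 min (SE).

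The LSU genes did not move alike. LSU2 had 4.15 and 1.38 CPM in flu/ex1 at 0 min, 20.1 and 17.2 at 30 min, and 11.4 and 16.1 at 60 min. Values in flu/ex1/ydl1 were 3.93 and 7.06 CPM at 0 min, 4.15 and 7.49 at 30 min, and 6.25 and 7.68 at 60 min. Light therefore went with a log2 fold change of 2.82 ± 0.42 at 30 min and 2.38 ± 0.42 at 60 min in flu/ex1, against 0.10 ± 0.41 and 0.36 ± 0.40 in flu/ex1/ydl1 (SE).

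LSU1 had 4.29 and 1.38 CPM in flu/ex1 at 0 min, 14.4 and 10.3 at 30 min, and 6.06 and 7.80 at 60 min. The flu/ex1/ydl1 libraries had 1.76 and 2.49 CPM at 0 min, 3.52 and 9.34 at 30 min, and 5.0 and 6.39 at 60 min. Unlike LSU2 it was higher in the light in both genotypes, by 1.35 ± 0.46 in flu/ex1 and 1.44 ± 0.50 in flu/ex1/ydl1 at 60 min on the log2 scale, and at 60 min the genotypes overlapped. LSU3, the neighbour of LSU1 by locus number, spread widely within groups, with 1.83 and 6.39 CPM in flu/ex1 at 60 min and 1.38 and 7.0 CPM in flu/ex1/ydl1 at 30 min. Its genotype difference over the 3 times was 0.10 ± 0.41, smaller than its SE. LSU4, the fourth LSU gene, was too low to be tested, with 36 counts over the 6 flu/ex1 libraries and 16 over the 6 flu/ex1/ydl1 libraries.

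The APS reductase genes split between the genotypes. APR2 had 71.3 and 55.5 CPM in flu/ex1 at 0 min, 151 and 146 at 30 min, and 141 and 163 at 60 min. Values in flu/ex1/ydl1 were 46.5 and 53.0 CPM at 0 min, 75.2 and 78.5 at 30 min, and 97.4 and 74.8 at 60 min. No flu/ex1/ydl1 pair overlapped its flu/ex1 counterpart, and the log2 fold change was -0.95 ± 0.24 at 30 min and -0.82 ± 0.24 at 60 min (SE).

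APR3 had 21.9 and 11.9 CPM in flu/ex1 at 0 min, 61.5 and 49.0 at 30 min, and 30.4 and 47.1 at 60 min. In flu/ex1/ydl1 it had 11.5 and 15 CPM at 0 min, 55.5 and 84.1 at 30 min, and 89.0 and 131 at 60 min. The genotypes overlapped at 0 and 30 min, and at 60 min both flu/ex1/ydl1 libraries were above both flu/ex1 libraries. APR3 was 2.85-fold higher there, a log2 fold change of 1.51 ± 0.33 (SE). Against darkness it was 8.30-fold higher at 60 min in flu/ex1/ydl1 and 2.31-fold higher in flu/ex1.

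APR1 had 8.08 to 32.5 CPM over the 6 flu/ex1 libraries, with a median of 26.4, and 5.89 to 27.6 CPM over those of flu/ex1/ydl1, with a median of 15.6. It was higher in the light in both genotypes, with 1.65 ± 0.29 in flu/ex1 and 2.0 ± 0.30 in flu/ex1/ydl1 at 60 min (log2 fold change and SE). BGLU28 was near the limit of detection, with 23 counts over the 6 flu/ex1 libraries and 5 over the 6 flu/ex1/ydl1 libraries. At 60 min the flu/ex1 libraries had 6 counts each and the flu/ex1/ydl1 libraries 0.

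Per kilobase of exon, which allows levels to be compared between genes, the sums of the 3 APS reductase genes at 60 min overlapped between the genotypes. APR2 was the largest part in flu/ex1. In flu/ex1/ydl1 APR2 and APR3 were nearly level in replicate 1 (44.4% and 45.5%), and APR3 was larger in replicate 2 (29.8% and 58.5%). The summed level of the 3 genes was 111 ± 15.2 CPM per kb in flu/ex1 and 115 ± 11 CPM per kb in flu/ex1/ydl1 at 60 min (SD, n = 2 each). APR2 made up 66.7% ± 2.26 of that sum in flu/ex1 and 37.1% ± 10.4 in flu/ex1/ydl1, and APR3 18.8% ± 3.24 and 52.0% ± 9.19 (SD, n = 2 each). In darkness the shares were alike, with APR3 at 20.0% ± 3.84 and 20.8% ± 1.82 of a sum of 45.3 ± 10.7 and 34.7 ± 3.47 CPM per kb. At 30 min APR3 stood at 25.8% ± 2.03 in flu/ex1 and 45.1% ± 5.34 in flu/ex1/ydl1, and the sum at 117 ± 9.56 and 83.8 ± 14.6 CPM per kb. In every illuminated flu/ex1/ydl1 library the APR3 share, 41.4% to 58.5%, was above that of every flu/ex1 library, 16.5% to 27.2%.

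**Figure D2:**
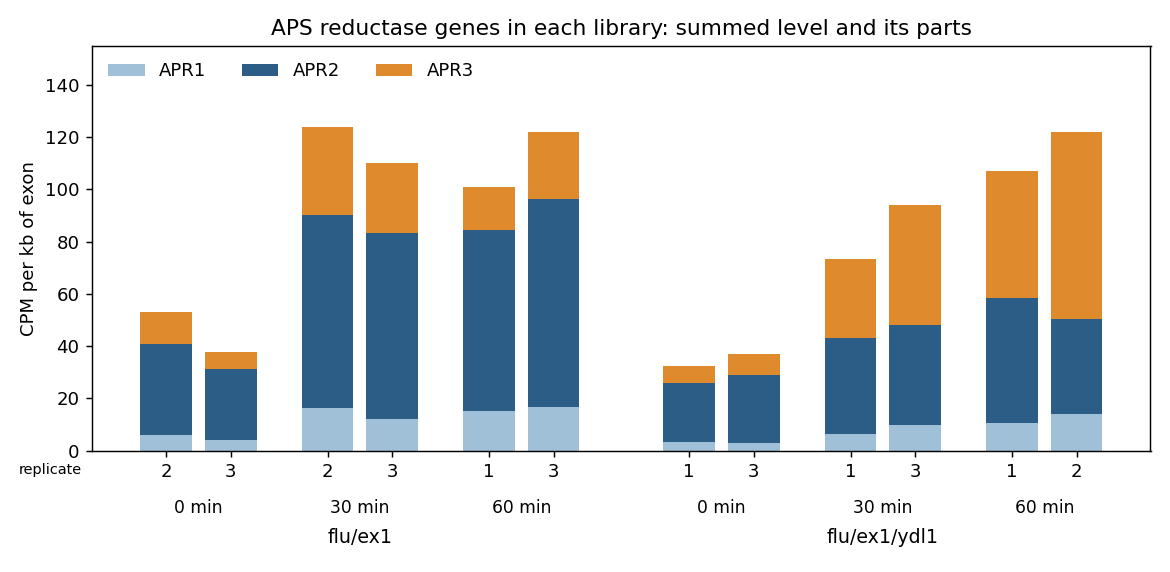
Summed level of APR1, APR2 and APR3 in CPM per kb of exon in each of the 12 libraries, stacked by gene, from 0. The bars at 60 min have about the same height in both genotypes (101 and 122 in flu/ex1, 107 and 122 in flu/ex1/ydl1), while the APR3 part is 16.5% and 21.1% in flu/ex1 and 45.5% and 58.5% in flu/ex1/ydl1.

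Exon sequences from TAIR10.1 gave no window of 50 bases shared between any of these genes, LSU4 included, although the read length is not given in the sources used here. SDI2, APR1, APR2 and APR3 overlap loci on the other strand. The loci overlapping APR2 had 4014 counts against 12319 of APR2, and that overlapping APR3 945 against 6283. The locus overlapping SDI2 had 205 counts against 676 of SDI2, and that overlapping APR1 469 against 2514. The strand setting of the counting is not given, so reads from such overlaps cannot be told apart.

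Within flu/ex1, light went with higher values of all 8 fitted genes. At 30 against 0 min the pairs did not overlap for any of the 8, all higher in the light, where 18.5% of all loci were, and at 60 min 7 were (LSU3 overlapped), where 23.1% were. At 30 min their log2 fold changes ran from 1.23 to 2.82 with a median of 2.06, against -0.01 over all loci. Of them 6 were past an edgeR adjusted p of 0.05 and higher, where 0.537% of all loci were, and SDI2 and LSU3 were not. At 60 against 0 min 4 were past it (SDI1, LSU2, APR1 and APR2), where 1.03% of all loci were higher. These shares are given as background, since the genes were chosen with such values in view. Both counts, 6 and 4, became 0 when replicate 3 of flu/ex1 at 0 min was left out, which left 15 and 100 loci past the threshold among all. Without that library the log2 fold change of LSU2 was 2.17 at 30 min and 1.73 at 60 min, and that of LSU1 1.52 at 30 min. Without replicate 2 of the same group these were 3.75, 3.31 and 3.15. Fewer of the 8 also passed at 30 min without either library of the 30 min group, and at 60 min without replicate 3 of the 60 min group. The number of all loci past the threshold fell there too. With each library left out in turn, SDI1 ran from 1.9 to 2.66 at 30 min and from 1.65 to 2.36 at 60 min. With labelled times 0 of 8 passed at either time, as did 0 of all loci. An unadjusted p under 0.05 was found for 0 of the 8, and for 701 and 1363 of all loci at 30 and 60 min.

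Within flu/ex1/ydl1, the 8 genes also had positive log2 fold changes at both times, but of other sizes. Pairs did not overlap and were higher for 4 genes at 30 min (LSU1 and the 3 APR genes), where 23.8% of all loci were, and for 6 at 60 min (also SDI1 and LSU3), where 26.1% were. The median was 0.87 at 30 min and 1.15 at 60 min, against -0.02 over all loci at both. At 30 min APR1 and APR3 were past the threshold, 2 genes, where 4.79% of all loci were higher. At 60 min APR1, APR2 and APR3 were, 3 genes, where 9.60% of all loci were higher. Leaving out replicate 1 or 3 of the dark group, or replicate 3 of the 30 min group, left 1 gene at 30 min. With labelled times 0 of 8 and 0 of all loci passed at either time. An unadjusted p under 0.05 was found for 0 of the 8, and for 1070 and 762 of all loci at 30 and 60 min. The SDI and LSU genes missed the threshold at both times.

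**Figure D3:**
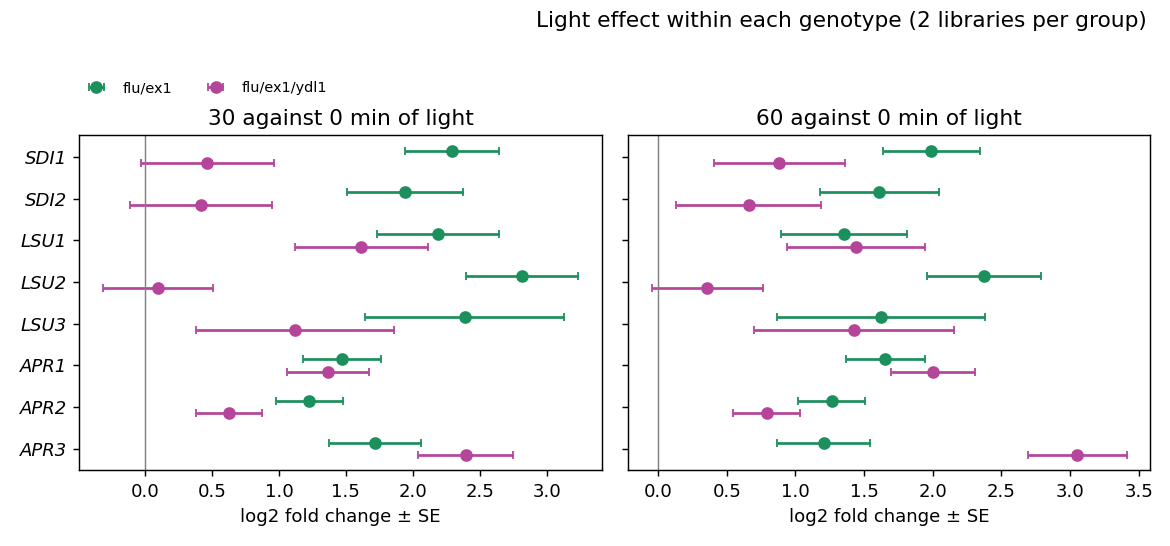
Log2 fold change with its SE (bars) of 8 genes at 30 min (left) and 60 min (right) of light against 0 min, in flu/ex1 (green) and flu/ex1/ydl1 (magenta), 2 libraries per group. At 60 min LSU2 lies at 2.38 in flu/ex1 and 0.36 in flu/ex1/ydl1, and APR3 at 1.21 and 3.05.

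The genotypes were compared at each time and over the 3 times. In darkness 0 of the 8 genes were past the threshold with edgeR or DESeq2, and 3 had an unadjusted p under 0.05 with edgeR and 1 with DESeq2. Of all loci 0.0112% passed with edgeR, and 711 had an unadjusted p under 0.05 with edgeR and 351 with DESeq2. At 30 min SDI1, SDI2, LSU2 and APR2, 4 genes, were past it and lower in flu/ex1/ydl1, where 0.352% of all loci were. At 60 min SDI1, SDI2 and APR2 were lower, 3 genes, where 1.33% of all loci were, and APR3, 1 gene, was higher, where 8.53% were. Over the 3 times SDI1, SDI2, APR1 and APR2, 4 genes, were lower, where 1.97% of all loci were. The log2 fold changes over the 3 times were -1.98 ± 0.23 for SDI1, -1.42 ± 0.27 for SDI2, -0.62 ± 0.17 for APR1 and -0.71 ± 0.14 for APR2 (SE). The median over the 8 genes was -0.57, against -0.01 over all loci.

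Which genes passed depended on single libraries and on the times. Fewer of the 8 passed at 30 min when any library of either group at that time was left out. At 60 min fewer passed without either flu/ex1 library or without replicate 2 of flu/ex1/ydl1. The number of all loci past the threshold moved too, by unlike amounts. With each library left out in turn, the log2 fold change of SDI1 at 30 min ran from -3.47 to -2.44. That of SDI2 ran from -2.88 to -1.67, of LSU2 from -2.16 to -1.32 and of APR2 from -0.98 to -0.92. At 60 min SDI1 ran from -2.34 to -1.95, SDI2 from -1.74 to -1.25, APR2 from -0.98 to -0.64 and APR3 from 1.2 to 1.86. With labelled times 0 of the 8 genes passed in any genotype comparison, where 6 of all loci passed over the 3 times, 2 in darkness and 0 at 30 and 60 min. Of the 8 genes 3 had an unadjusted p under 0.05 over the 3 times, as did 3426 of all loci. The genotype is the same in labels and file names, and with labelled times SDI1 had -2.24 ± 0.42 and APR3 0.72 ± 0.54 over the 3 times. At 30 min labelled times gave -1.59 ± 0.69 for SDI1, -1.01 ± 0.62 for SDI2 and -0.26 ± 0.82 for LSU2, and at 60 min -2.56 ± 0.70 for SDI1, -1.55 ± 0.61 for SDI2 and 0.92 ± 0.94 for APR3.

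The difference between the light effects of the genotypes at 60 min was 1.85 ± 0.48 for APR3 and -2.02 ± 0.58 for LSU2 on the log2 scale (SE). Of the 8 genes APR3 alone, 1 gene, was past the threshold, where 3.12% of all loci were higher, a count given as a description. It missed the threshold when any 1 of 6 libraries was left out, namely either flu/ex1 library at 30 min, replicate 1 of flu/ex1 at 60 min, either flu/ex1/ydl1 library in darkness, or replicate 2 of flu/ex1/ydl1 at 60 min. For SDI1 the difference was -1.11 ± 0.61, for SDI2 -0.95 ± 0.69 and for LSU1 0.09 ± 0.68. Leaving out each library in turn gave LSU2 differences between -2.95 and -1.37 and APR3 differences between 1.35 and 2.23. Those of SDI1 ran from -1.47 to -0.76. Those of SDI2 ran from -1.59 to 0.28 and of LSU1 from -0.88 to 0.75, so neither kept its sign. With labelled times the difference was 1.00 ± 1.33 for APR3 and 0.24 ± 1.19 for LSU2, and 0 of all loci passed. For SDI1 it was 0.01, too near 0 for its SE to be reliable.

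The 4 libraries whose time is the same in label and file name are 1 per genotype at 0 min and at 60 min. None is at 30 min. In them the same values stood as follows, with no test. The replicate number is also the same for those at 0 min, but differs for those at 60 min. SDI1 went from 2.91 to 9.03 CPM between 0 and 60 min in flu/ex1 and from 0.948 to 1.79 CPM in flu/ex1/ydl1. LSU2 went from 4.15 to 11.4 CPM and from 3.93 to 6.25 CPM. APR3 went from 21.9 to 30.4 CPM and from 11.5 to 89.0 CPM. Not all genes went as in the fit. On the log2 scale the change in flu/ex1 and in flu/ex1/ydl1 was 1.03 and 1.96 for SDI2, -0.33 and 1.78 for LSU3, and 0.99 and 1.06 for APR2. It was thus larger in flu/ex1/ydl1, whereas the fit gave differences of -0.95, -0.20 and -0.47. For the other fitted genes the difference had the same sign as in the fit. At 60 min 6 of 8 genes were lower in flu/ex1/ydl1, and LSU3 and APR3 were higher.

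Among themselves the genes were most alike within the SDI pair. Across the 12 libraries, which share genotypes and light times, Pearson's r of log2 CPM was 0.94 between SDI1 and SDI2, 0.91 between each of them and APR2, 0.88 between LSU1 and LSU3, and 0.26 between SDI1 and APR3. The mean of the 8 standardised profiles was followed most closely by LSU1, with r = 0.96, and least by APR3, with r = 0.70. Each of the 8 is part of that mean, which raises its r, so these values cannot be set against those of other loci. The loci outside the set most like that mean were AT1G06045 (r = 0.94), the tyrosine aminotransferase gene TAT7 (0.93), the light-signalling transcription factor gene HY5 (0.93), SDR1 (0.92) and STO, a B-box factor gene of light signalling (0.92). AT1G06045 and STO (AT1G06040) have adjacent locus numbers, and whether they share reads was not tested.

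The rest of the sulfur pathway was read from 6 lists of 63 further genes, of which 56 were tested. These lists were compiled by function, but with earlier results of these data known. Their shares and p-values are therefore no independent support. In flu/ex1/ydl1 at 60 min, 3 genes for sulfate activation were higher. So were 2 of the serine acetyltransferase genes, which supply O-acetylserine, while the others had lower means and did not pass. The 2 genes GGCT2;1 and SHM7, which sulfur shortage is known to induce, were lower, as SDI1 and SDI2 were. In all 7 of the 56 were higher (12.5%, against 8.53% of all loci) and 3 were lower (5.36%, against 1.33%), with a median log2 fold change of 0.04 against -0.05 over all loci. DESeq2 called 8 rather than 10 of them, without DES1 (DESeq2 adjusted p = 0.2) and GGCT2;1 (DESeq2 adjusted p = 0.0518).

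Among sulfate activation and sulfite reduction genes, 3 of 9 were higher at 60 min and 0 lower. APS3, an ATP sulfurylase gene that makes APS, had 8.58 and 13.3 CPM in flu/ex1 and 30.6 and 38.9 CPM in flu/ex1/ydl1. It was higher by 1.68 ± 0.25 on the log2 scale (SE, edgeR adjusted p = 0.000194). APS1, of the same enzyme, was higher by 0.91 ± 0.24 (edgeR adjusted p = 0.0222). APS2, also of that enzyme, went the other way without passing the threshold. It had 29.7 to 38.1 CPM in flu/ex1 and 17.7 to 24.3 CPM in flu/ex1/ydl1. Of the 9 genes 7 had a positive log2 fold change and 2 a negative one. APK2, an APS kinase gene that diverts APS to sulfation, was higher by 1.40 ± 0.25 (edgeR adjusted p = 0.000816). Sulfite reductase, the single-copy next step after APS reductase, had 109 and 138 CPM in flu/ex1 and 125 and 151 CPM in flu/ex1/ydl1, and the groups overlapped.

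Among cysteine synthesis genes, 2 of 10 were higher at 60 min and 1 lower. SERAT2;1, the plastid serine acetyltransferase gene, had 7.26 and 8.50 CPM in flu/ex1 and 22.0 and 52.9 CPM in flu/ex1/ydl1. It was higher by 2.27 ± 0.34 on the log2 scale (SE, edgeR adjusted p = 0.000192), and by 1.48 without replicate 2 of flu/ex1/ydl1. SERAT2;2, its mitochondrial relative, was higher by 1.09 ± 0.26 (edgeR adjusted p = 0.00942). DES1, a cysteine desulfhydrase gene, had a log2 fold change of -1.19 ± 0.33 (edgeR adjusted p = 0.0291).

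Among glutathione genes, 2 of 10 were higher at 60 min and 1 lower. GGT1, a gamma-glutamyl transferase gene that breaks down glutathione outside the cell, had 7.19 and 9.06 CPM in flu/ex1 and 38.6 and 61.3 CPM in flu/ex1/ydl1. It was higher by 2.63 ± 0.27 on the log2 scale (SE, edgeR adjusted p = 6.7e-06). GSH2, glutathione synthetase, was higher by 0.81 ± 0.24 (edgeR adjusted p = 0.044). GGCT2;1, a cytosolic glutathione-degrading enzyme induced by sulfur shortage, had 4.80 and 5.27 CPM in flu/ex1 and 1.79 and 1.44 CPM in flu/ex1/ydl1. Its log2 fold change was -1.67 ± 0.43 (edgeR adjusted p = 0.0176).

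SHM7, which encodes a serine hydroxymethyltransferase-like protein and is induced by sulfur shortage, was the 1 gene lower among 3 tested of the list of other sulfur deficiency genes and regulators. It had 29.5 and 27.8 CPM in flu/ex1 and 7.51 and 13.6 CPM in flu/ex1/ydl1 at 60 min, a log2 fold change of -1.40 ± 0.37 (edgeR adjusted p = 0.0211). EIL3, the SLIM1 transcription factor of the sulfur response, and HY5 did not pass between the genotypes. Of 9 tested sulfate transporter genes 0 passed at 60 min with edgeR, with 1 at an unadjusted p under 0.05. Of 15 tested aliphatic glucosinolate genes 0 passed, with 2 at an unadjusted p under 0.05, where 3788 of all loci had one. DESeq2 also called 0 in both lists.

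**Figure D4:**
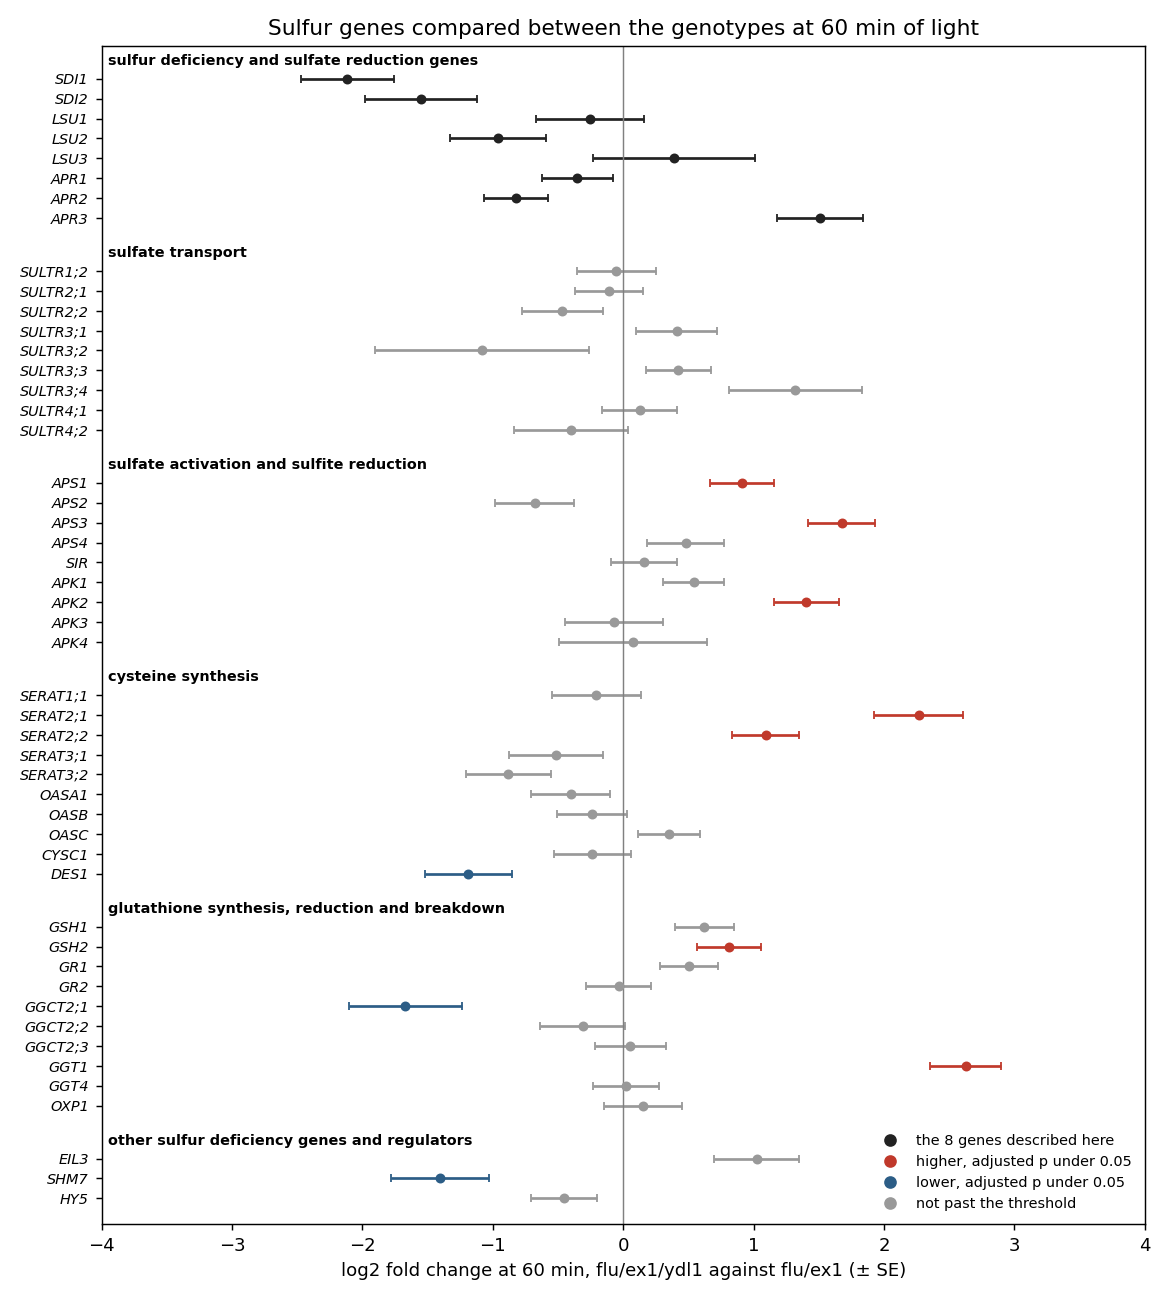
Log2 fold change with its SE at 60 min of light, flu/ex1/ydl1 against flu/ex1, for the 8 genes described here (black, no call) and for tested genes of 5 other sulfur lists, red where higher and blue where lower at an edgeR adjusted p under 0.05, grey otherwise. APS3, SERAT2;1 and GGT1 lie at 1.68, 2.27 and 2.63, GGCT2;1 and SHM7 at -1.67 and -1.40.

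Over the 3 times 8 of the 56 genes were higher (14.3%, against 7.00% of all loci) and 4 lower (7.14%, against 1.97%). GGT1 was higher by 1.54 ± 0.16 (edgeR adjusted p = 8.91e-06), and GGCT2;1 and SHM7 had -1.90 ± 0.30 (edgeR adjusted p = 0.000431) and -1.24 ± 0.23 (edgeR adjusted p = 0.00154). SERAT3;2, a further serine acetyltransferase gene, and DES1 were lower too. Of glucosinolate genes BCAT4 and CYP79F1 were higher, by 0.64 ± 0.18 (edgeR adjusted p = 0.0313) and 1.57 ± 0.34 (edgeR adjusted p = 0.00545). With labelled times 0 of the 56 passed over the 3 times, where 6 of all loci did. At 60 min 0 of the 56 and 0 of all loci passed. An unadjusted p under 0.05 was found for 18 and 10 of the 56, and for 3426 and 3188 of all loci. The log2 fold changes over the 3 times were then 1.85 ± 0.48 for GGT1, -2.15 ± 0.48 for GGCT2;1 and -1.28 ± 0.38 for SHM7. DESeq2 did not call DES1 over the 3 times (DESeq2 adjusted p = 0.165). At 60 min the 10 calls became 4 when either flu/ex1 library at 60 min was left out, and 6 without replicate 2 of flu/ex1/ydl1.

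At 60 against 0 min 5 were higher in flu/ex1 (8.93%, against 1.03% of all loci) and 0 lower, and 12 were higher in flu/ex1/ydl1 (21.4%, against 9.60%) and 0 lower. In flu/ex1 they were GGCT2;1, SHM7, HY5 and the glucosinolate genes SUR1 and UGT74C1. SHM7 rose from 7.26 ± 2.83 to 28.7 ± 1.21 CPM (SD, n = 2 each), by 1.96 ± 0.39 on the log2 scale (edgeR adjusted p = 0.0171), and GGCT2;1 by 1.88 ± 0.44 (edgeR adjusted p = 0.0453). DESeq2 did not call GGCT2;1 (DESeq2 adjusted p = 0.0508), whose value was 1.27 without replicate 3 of the dark group and 2.66 without its replicate 2. HY5 rose by 1.22 ± 0.27 (edgeR adjusted p = 0.0313). The 5 calls became 0 when replicate 2 of the dark group or either library of the 60 min group was left out. They became 1 without replicate 3 of the dark group and 3 without replicate 3 of the 30 min group, which shares the estimate of spread.

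In flu/ex1/ydl1 the 12 that rose were SULTR3;1, APS1, APS3, APK1, APK2, SERAT2;1, SERAT2;2, OASC, GSH1, GR1, GGT1 and FMOGS-OX1. SERAT2;1 rose by 2.98 ± 0.37 on the log2 scale (edgeR adjusted p = 2.61e-05), GGT1 by 2.90 ± 0.28 (edgeR adjusted p = 3.52e-06), APS3 by 2.13 ± 0.27 (edgeR adjusted p = 2.84e-05) and SULTR3;1, a plastid sulfate transporter gene, by 1.58 ± 0.37 (edgeR adjusted p = 0.00714). GSH1, which catalyses the first step of glutathione synthesis, rose from 34.1 ± 3.95 to 62.4 ± 2.79 CPM (SD, n = 2 each, edgeR adjusted p = 0.0151). DESeq2 did not call OASC (DESeq2 adjusted p = 0.115), and SERAT2;1 had 2.20 without replicate 2 of the 60 min group. Leaving out replicate 3 of the dark group left 7 calls. With labelled times 0 of 56 and 0 of all loci passed in flu/ex1 and in flu/ex1/ydl1. An unadjusted p under 0.05 was found for 6 and 1 of the 56, and for 1363 and 762 of all loci.

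The light effect itself differed between the genotypes for 3 of the 56 genes (5.36%, against 3.12% of all loci). It was larger in flu/ex1/ydl1 by 2.64 ± 0.51 for SERAT2;1 (edgeR adjusted p = 0.00816), by 2.35 ± 0.40 for GGT1 (edgeR adjusted p = 0.00369) and by 1.66 ± 0.37 for APS3 (edgeR adjusted p = 0.0192) on the log2 scale (SE). Leaving out replicate 1 of flu/ex1/ydl1 in darkness left 1 call, and without replicate 2 of that genotype at 60 min SERAT2;1 had 1.85. With labelled times 0 of the 56 and 0 of all loci passed, and 2 of the 56 had an unadjusted p under 0.05, as did 1065 of all loci.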

How the data were processed

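Total RNA of plants was made into Illumina TruSeq libraries, according to the labels. Each sample has 1 deposited file of raw counts by locus, made by the authors with Trimmomatic, FastQC, TopHat2 2.1.1 and featureCounts on the build TAIR10, per the submitters' processing notes. Annotation, strand setting and treatment of reads mapping to several loci are not given in the sources used here. Files were tied to samples by the deposit's record, genotypes to labels and light times to the file-name code.

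Loci were kept with filterByExpr of edgeR 4.0.16 (minimum count 10, minimum total count 15), scaled by TMM and fitted in 6 groups of genotype and time with quasi-likelihood F tests in R 4.3.3. Adjustment followed Benjamini-Hochberg across the 17879 tested loci (threshold 0.05). Each SE was derived from the log2 fold change and the F value, which is unreliable for a log2 fold change very near 0. Log2 CPM for correlations used a prior count of 2. Levels per kb used exon lengths of TAIR10.1, whose table also gave names. The fit was tested on simulated data.

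The 9 genes and the 6 sulfur lists were chosen with earlier results of these data known. The lists were compiled by function. All 9 genes are named, and list genes where they passed in the comparison over the 3 times or in a 60 min comparison, at most 4 with the smallest p per list and comparison. Some list genes that did not pass are named for context. The 5 loci most like the set were ranked by Pearson's r over the 12 libraries. Alternatives were labelled times, DESeq2 1.42.0, edgeR with DESeq2's size factors, all loci unfiltered, nuclear loci alone, the replicate number as a block and leaving out each library. The remaining library of such a group is then taken to vary as the others do. Precision is limited by 2 libraries per group and by low counts, 5 to 54 per library for the SDI and LSU genes in darkness.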

Additional observations from a re-analysis of the deposited data

Results flagged for a closer look

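The light effect at 60 min differed between the genotypes, by the test of the difference itself, for 3 of 56 tested sulfur genes. That is 5.36%, against 3.12% of all loci. The difference, flu/ex1/ydl1 minus flu/ex1 on the log2 scale, was 1.66 for APS3, 2.64 for SERAT2;1 and 2.35 for GGT1. Not all 3 passed without replicate 1 of flu/ex1/ydl1 in darkness. SERAT2;1 had 1.85 without replicate 2 of that genotype at 60 min. The lists holding these 3 genes were also chosen with earlier results of these data known. APR3 had 1.85, given as a description because it was chosen with such values in view, and it missed the threshold when any 1 of 6 libraries was left out. With labelled times the differences were 0.91 ± 0.88 for APS3, 0.80 ± 1.23 for SERAT2;1, 0.93 ± 1.15 for GGT1 and 1.00 ± 1.33 for APR3 (SE), and 0 of all loci passed. In the 4 libraries with the same time in label and file name, APS3 went from 8.44 to 8.58 CPM in flu/ex1 and from 7.99 to 30.6 CPM in flu/ex1/ydl1. GGT1 went from 5.81 to 7.19 CPM and from 6.50 to 38.6 CPM there, with 1 library per genotype and time and no test. The 60 min libraries among these 4 have another replicate number in label and file name.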

How the results depend on the processing

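Of the choices tried, the light times mattered most. With labelled times the number of the 8 genes past the threshold was 0 in each of the 9 comparisons, against 4 over the 3 times, 4 at 30 min and 4 at 60 min between genotypes, 6 and 4 for light in flu/ex1, 2 and 3 for light in flu/ex1/ydl1 and 1 for the difference of light effects. Over all loci labelled times left 6 calls over the 3 times, 2 in darkness and 0 in each of the other 7 comparisons. The number of other sulfur genes past it was likewise 0, against 12, 10, 5, 12 and 3. At 30 against 0 min in flu/ex1 the labelled times gave log2 fold changes of the other sign for 6 of the 8 genes, -0.06 for SDI1, -0.33 for SDI2, -0.65 for LSU1, -0.29 for LSU2, -0.52 for LSU3 and -0.26 for APR3. Without the filter on low counts 8 genes passed for 60 min of light in flu/ex1 and 2 for the difference of light effects. Of all loci 701 and 885 passed there, against 251 and 591 with nuclear loci alone, which kept the filter. With the replicate number as a block 2 passed between genotypes at 30 min, and no other count moved by over 1.5 times. Of all loci 666 passed there, against 712 with nuclear loci alone and no block. Deviations of same-numbered libraries correlated from -0.24 to 0.33, so the numbers were not taken to pair libraries. DESeq2, its size factors and nuclear loci moved no count by over 1.5 times. Leaving out each library gave 3 to 4 genes over the 3 times, 0 to 0 in darkness, 1 to 4 at 30 min, 1 to 4 at 60 min, 0 to 7 and 0 to 5 for light in flu/ex1, 1 to 3 and 2 to 4 for light in flu/ex1/ydl1, and 0 to 1 for the difference. It gave 8 to 13, 4 to 11, 0 to 6, 7 to 15 and 1 to 3 other sulfur genes. The cause of these changes was not tested.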
